A study of Saccharomyces cerevisiae with 2 samples.

Results

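The genes described here encode the protein part of the small subunit processome and of the box snoRNPs in the yeast Saccharomyces cerevisiae. They are 40 of the 6448 rows of a count table, chosen by systematic name, and all 40 were matched to the RefSeq annotation and passed the count minimum used below. The table came from BioGRO-seq, in which polymerases already at work on genes extend their transcripts with a biotin-labelled nucleotide in permeabilised cells, so the counts report transcription rather than RNA abundance. The wild type was strain BY4741, and the mutant lacked XRN1 and came from the Euroscarf collection of deletion strains, with 1 library per strain. Both cultures were harvested in growth and frozen. Their cells were permeabilised with sarkosyl, and RNase A was applied before the run-on. Xrn1 is an exonuclease of the cytoplasm that digests mRNA in the 5′ to 3′ direction, and the series asks how its loss influences gene transcription.

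The small subunit processome is the large nucleolar particle that forms on the precursor ribosomal RNA while it is still being transcribed, and in which the RNA of the small ribosomal subunit is folded, modified and cut out. It is built around the U3 snoRNA, a box C/D RNA. Other box C/D snoRNPs guide 2′-O-methylation of ribosomal RNA and box H/ACA snoRNPs guide its pseudouridylation. The genes for these proteins are a classic part of the ribosome biogenesis regulon of budding yeast, whose promoters often carry the sequence elements called PAC and RRPE and whose transcription follows growth conditions.

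The promoters of the genes are shown first because they are what most of the group has in common apart from function. PAC was searched as GATGAG and RRPE as AAAATTT, on both strands, from 250 bases before to 50 bases after the start codon. The stretches below are from the RefSeq R64 genome, read 5′ to 3′ on the strand of the gene, with PAC and RRPE matches in capitals. AAAATTTT holds an RRPE match on each strand, and these overlap. The genes are the 3 with the lowest and the 3 with the highest ratio of deletion strain over wild type among those that hold both elements, and 4 further core snoRNP genes.
NSR1: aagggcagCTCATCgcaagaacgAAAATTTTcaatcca
NAN1: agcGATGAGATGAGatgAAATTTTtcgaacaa
NOP58: TTTtcaacCTCATCgAAAATTTTcagaaaa
NOP1: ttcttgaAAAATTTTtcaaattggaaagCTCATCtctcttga
NOP56: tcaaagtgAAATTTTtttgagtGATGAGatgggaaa
CBF5: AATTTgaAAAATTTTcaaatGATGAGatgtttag
GAR1: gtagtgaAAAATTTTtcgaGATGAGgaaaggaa
UTP20: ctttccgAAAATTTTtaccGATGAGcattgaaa
UTP10: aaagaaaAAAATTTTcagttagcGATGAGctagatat
UTP14: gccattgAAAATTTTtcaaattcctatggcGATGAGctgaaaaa
The NSR1 stretch lies at chrVII:807814-807851 on the minus strand, 195 to 158 bases before the start codon. That of NOP58 is at chrXV:898461-898490 on the minus strand, and that of NAN1, where 2 PAC matches overlap, is at chrXVI:310086-310117 on the plus strand. At the other end of the ratios, the UTP14 stretch is at chrXIII:82967-83010 on the plus strand and the UTP10 stretch at chrX:217396-217432 on the minus strand. Genes at both ends of the ratios held both elements. With only the RRPE match nearest to PAC counted, PAC lay farther from the start codon in NSR1, NAN1 and NOP58. RRPE lay farther out in UTP20, UTP10 and UTP14. However, NSR1, NAN1 and NOP58 also held an RRPE match farther out than PAC, so their order depends on that choice.

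PAC was found in 36 of the 40 promoters (90%), against 19.9% of the 5273 promoters of protein-coding rows. RRPE was found in 38 (95%), against 24.2% of all. Both were present in 35 (87.5%), against 8.38% of all. The pair was about as frequent in some other genes of ribosome biogenesis. It was found in 87.2% of 39 further small subunit factors, 86.2% of 65 assembly factors of the large subunit and 6 of 7 genes of RNA polymerase I subunits. It was less frequent among other snoRNP proteins and snoRNP assembly factors, at 4 of 12 genes, and in 137 ribosomal protein genes, at 3.65%. The longer PAC form CGATGAG, which contains GATGAG, was found in 27 (67.5%), against 7.49% of all. In 29 of the 35 promoters with both, the nearest RRPE match lay farther from the start codon than the PAC match, and the median gap between them was 9 bases. The order was the reverse in 6, which were NSR1, NAN1, NOP58, UTP5, KRR1 and DIP2. These include the 3 genes with the lowest ratios among the 35, but UTP5, KRR1 and DIP2 were at log2 ratios of −0.35, −0.27 and −0.13. NSR1, NAN1, NOP58 and KRR1 also held an RRPE match farther out than PAC, so their order depends on taking the nearest match. A link between order and ratio was not tested. RRP9 held PAC without RRPE, UTP15, UTP22 and UTP30 held RRPE without PAC, and EMG1 held neither in this window.

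**Figure D1:**
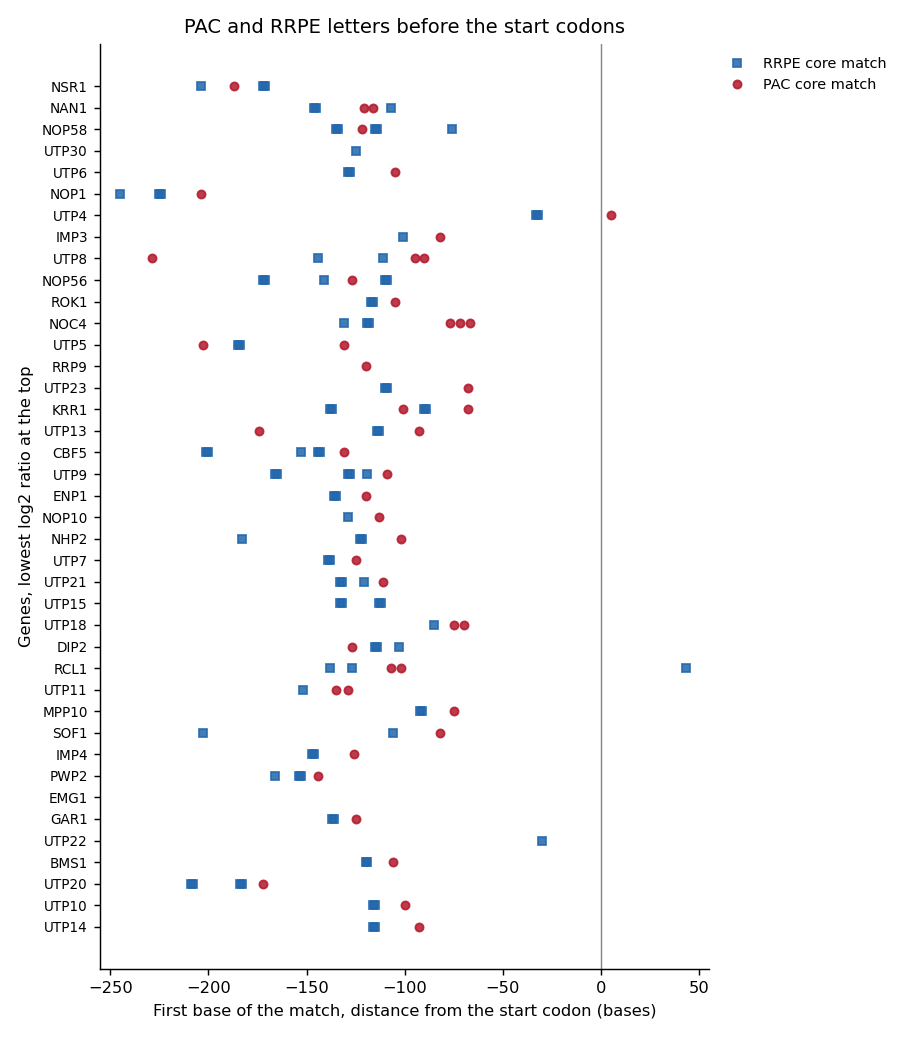
Positions of PAC (circles) and RRPE (squares) matches in the promoters of the 40 genes, as the distance in bases of the first base of each match from the start codon, with the gene of the lowest log2 ratio at the top. The median PAC match starts 109 bases and the median RRPE match 131 bases before the start codon. In the rows of NSR1, NAN1 and NOP58 PAC lies farther out than the RRPE match nearest to it, but another RRPE match lies farther out still. In those of UTP20, UTP10 and UTP14 RRPE lies farther out.

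The wild type library held 64934493 counts and that of the deletion strain 46396400, so counting error is small for these genes, while the spread between cultures was not measured. No p-value can be given with 1 library per strain. XRN1 itself was counted 41954 times in the wild type but only 53 times in the mutant. LEU2, URA3 and MET17, which are deleted in BY4741, had at most 12 counts in either library, whereas HIS3, which is only partly deleted there, had 2839 and 2720. Every ratio below is deletion strain over wild type, scaled by 0.701, the raw ratio found for the median protein-coding gene. A change common to all genes therefore cannot be seen. Intervals in brackets are 95% exact conditional intervals that cover counting error only.

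The group was well transcribed. Levels are given as counts per kb of coding length per 1000000 counts on protein-coding genes, a scale on which genes of different length can be compared. The median level of the 40 genes was 125 in the wild type and 113 in the mutant, against 71.4 and 73.5 over all protein-coding genes with at least 100 counts. In the wild type the levels ran from 61.0 for UTP30 to 938 for NSR1, which lay above 96.7% of those genes. NSR1, NOP1, NOP58 and CBF5 were the 4 most transcribed, at wild type levels of 938, 461, 384 and 303 and mutant levels of 534, 332, 260 and 250. The order of the genes was nearly the same in both libraries (Spearman's rho 0.94 over the 40 genes, a description of libraries that share gene lengths).

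**Figure D2:**
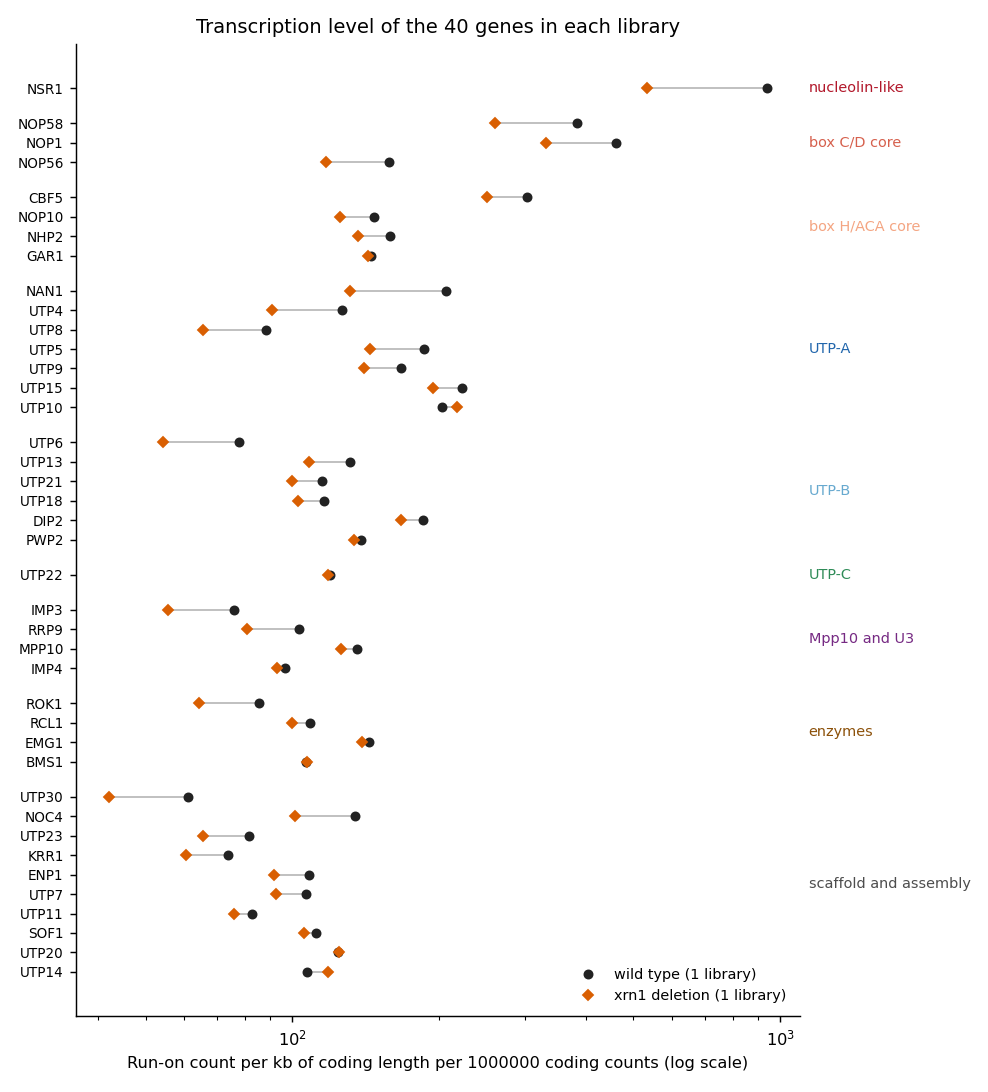
Level of each of the 40 genes in the wild type (circles) and in the xrn1 deletion strain (diamonds), as counts per kb of coding length per 1000000 coding counts on a log axis, grouped by role, with 1 library per strain. The diamond lies left of the circle for most genes, the gap is widest for NSR1 (938 and 534), and UTP10 and UTP14 lie the other way.

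As a group the genes were modestly lower in the deletion strain relative to the median gene. The median log2 ratio was −0.21, with quartiles at −0.39 and −0.08, beside 0 and quartiles at −0.22 and 0.26 over all 5198 protein-coding genes with at least 100 counts. Of the 40, 35 were below the median gene (50.0% of all genes are, by construction), although one of these, GAR1, sat at the median itself. The counting interval lay wholly below the median gene for 31 and wholly above it for 3, against 42.4% and 43.0% of all genes. Together the 40 genes took 1.20% of the wild type and 1.01% of the mutant coding counts.

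The differences were small for most genes, and every gene past a size threshold was lower. A ratio of 0.8 or less, with an interval below 1, was found for 14 of the 40 genes (35%), against 16.0% of all genes. A ratio of at least the inverse of 0.8, with an interval above 1, was found for 0, against 20.4% of all genes. Genes past these bounds are called clearly lower and clearly higher below, as a statement of size only. At 1.5-fold, 2 of the 40 were lower (5%), a share near the 5.35% of all genes, and 0 were higher, against 10.3%. At 2-fold, 0 were lower and 0 higher, against 1.52% and 4.06%. Ratios of the group ran from −0.79 for NSR1 to 0.17 for UTP14 on the log2 scale.

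**Figure D3:**
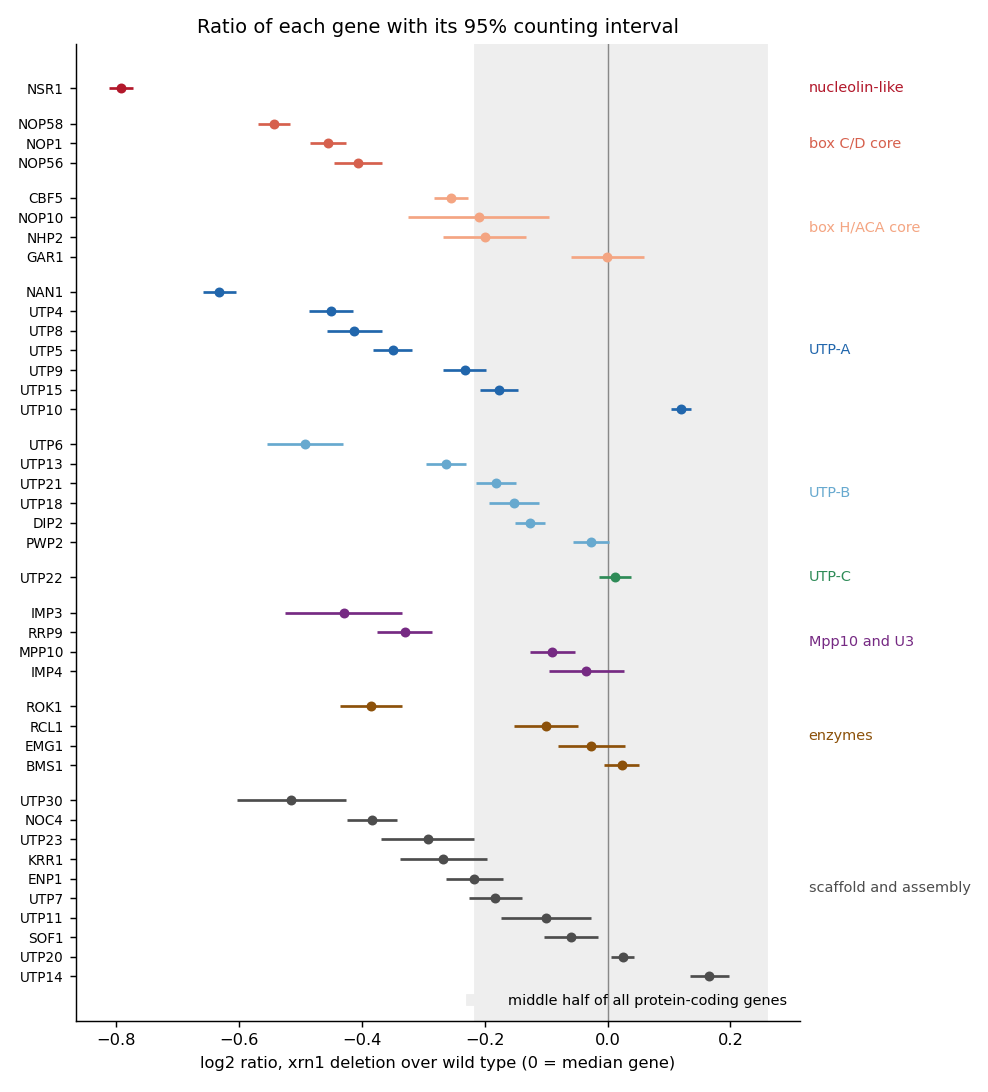
Log2 ratio of deletion strain over wild type for each of the 40 genes, with its 95% counting interval (bars), grouped by role. The grey band holds all protein-coding genes between the quartiles, −0.22 to 0.26. The genes left of the band come from several role groups and include the 3 box C/D genes, NSR1, NAN1 and CBF5. The 5 genes to the right of 0 are UTP14, UTP10, UTP20, BMS1 and UTP22.

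NSR1 (YGR159C, chromosome VII, 806412 to 807656, minus strand) encodes the yeast relative of nucleolin, an RNA-binding nucleolar protein needed for processing of the precursor ribosomal RNA. Its 73098 counts in the wild type compared with 29631 in the mutant, 1.73-fold lower (1.71 to 1.75). This was the lowest ratio of the group, below that of all but 2.44% of protein-coding genes. The next gene upstream, RTS3 on the same strand, was at a log2 ratio of 0.99, and the next downstream, MTR3, was at 0.05.

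The genes for the core proteins of box C/D snoRNPs were all lower. NOP58 (YOR310C, chromosome XV, 896825 to 898360), for one of the paired scaffold proteins, received 36890 wild type and 17763 mutant counts, 1.46-fold lower (1.43 to 1.48). NOP56 (YLR197W, chromosome XII, 546097 to 547611), for its partner, received 14941 wild type and 7908 mutant counts, 1.33-fold lower (1.29 to 1.36). NOP1 (YDL014W, chromosome IV, 427364 to 428347), for fibrillarin, the methyltransferase of the particle, received 28412 wild type and 14538 mutant counts, 1.37-fold lower (1.34 to 1.40). The 3 genes lie on 3 chromosomes and had close ratios, with log2 values from −0.54 to −0.41. SNU13, which encodes the remaining core protein and is also a spliceosome component, is outside the 40 genes. Its counts were 22508 and 12531, a log2 ratio of −0.33.

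The genes for the core proteins of box H/ACA snoRNPs lay closer to the median gene. CBF5 (YLR175W, chromosome XII, 506134 to 507585), for the pseudouridine synthase, received 27534 wild type and 16190 mutant counts, 1.19-fold lower (1.17 to 1.22). NHP2 had 4676 and 2855 counts and NOP10, the shortest of the 40 genes at 177 bp, had 1627 and 987. Both encode small structural proteins of the particle, with log2 ratios of −0.20 and −0.21. GAR1 (YHR089C, chromosome VIII, 282681 to 283298), for the glycine- and arginine-rich subunit, had 5601 and 3928 counts and a ratio of 1.00 (0.960 to 1.04). All 3 counting intervals of the box C/D genes lay below all 4 of the box H/ACA genes, the highest of the former ending at 0.776 and the lowest of the latter starting at 0.798. With trends on count and GC content removed the separation was lost, since NOP56 had a ratio of 0.825 (0.803 to 0.848) and NOP10 one of 0.781 (0.721 to 0.846). With the length trend removed NOP56 at 0.767 (0.747 to 0.789) overlapped NOP10 at 0.820 (0.757 to 0.888). Whether the separation exceeds the spread between cultures was not tested.

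UTP-A proteins bind the precursor RNA first and are also tied to its transcription, for which they are known as t-UTPs. Of the 7 genes, 6 were lower than the median gene and 4 were clearly lower, with a median log2 ratio of −0.35. NAN1 (YPL126W, chromosome XVI, 310210 to 312900) received 34753 wild type and 15736 mutant counts, 1.55-fold lower (1.52 to 1.58), the second lowest ratio of the 40. UTP4 had 18400 and 9450 counts, UTP8 had 11857 and 6252, and UTP5 had 22531 and 12402. These 3 were 1.37-fold, 1.33-fold and 1.27-fold lower. UTP4 and UTP8 were no longer clearly lower once trends on count and GC content were removed, nor was UTP5 once the length trend was removed. Each stayed clearly lower in the other alternatives of processing described below, most of which shift all genes nearly alike. UTP9 and UTP15 were at log2 ratios of −0.23 and −0.18. UTP10 (YJL109C, chromosome X, 212000 to 217309), for a long scaffold protein of the same complex, went the other way, with 67435 and 51385 counts and a ratio of 1.09 (1.07 to 1.10). Genes for subunits of this single complex therefore differed by far more than counting error.

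UTP-B, a complex largely of WD-repeat proteins, had a median log2 ratio of −0.17, and all 6 of its genes were below the median gene. UTP6, with 6421 and 3203 counts, was 1.41-fold lower (1.35 to 1.47) and the only clearly lower UTP-B gene. UTP13 was at −0.26, UTP21 at −0.18, UTP18 at −0.15 and DIP2, the most transcribed of the complex, at −0.13, with 32764 and 21059 counts. PWP2, with 23938 and 16480 counts, had a ratio of 0.982 with an interval that included the median gene (0.962 to 1.00). UTP22, the UTP-C gene of the group, had 27717 and 19608 counts and a ratio of 1.01 (0.990 to 1.03).

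The genes of the Mpp10 complex and of the U3-specific protein Rrp9 were mixed. MPP10 encodes a scaffold of the processome that holds Imp3 and Imp4, which help U3 pair with the precursor RNA. IMP3, with 2626 and 1368 counts, was 1.35-fold lower (1.26 to 1.44), and RRP9, with 11106 and 6198 counts, 1.26-fold lower (1.22 to 1.30). MPP10, with 15146 and 9980 counts, was at a log2 ratio of −0.09, and IMP4, with 5284 and 3619 counts, at −0.03 with an interval that included the median gene. In these libraries, genes for proteins of the same complex thus differed by more than counting error. Whether they differ by more than the spread between cultures was not tested.

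Among the enzymes and enzyme-like factors, ROK1, for a DEAD-box RNA helicase, stood lowest. This gene received 9059 wild type and 4868 mutant counts, 1.31-fold lower (1.26 to 1.35). The gene of the cyclase-like protein Rcl1 had 7500 and 4906 counts and a log2 ratio of −0.10. EMG1, for the methyltransferase that modifies a base of the small subunit RNA, had 6808 and 4689 counts and a log2 ratio of −0.03. BMS1, for the GTPase that binds Rcl1, had 23731 and 16910 counts and a log2 ratio of 0.02. The intervals of EMG1 and BMS1 included the median gene.

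The remaining scaffold and assembly factors had a median log2 ratio of −0.20, with 8 of 10 below the median gene. UTP30 (YKR060W, chromosome XI, 556518 to 557342) received 3152 wild type and 1548 mutant counts, 1.43-fold lower (1.34 to 1.52). NOC4, for the partner of Nop14, received 13922 wild type and 7488 mutant counts, 1.30-fold lower (1.27 to 1.34). UTP23, KRR1, ENP1 and UTP7 lay between −0.29 and −0.18, and UTP11 and SOF1 were at −0.10 and −0.06. UTP20 and UTP14 were the exceptions. UTP20, the longest of the 40 genes, had 58133 and 41477 counts and a ratio of 1.02 (1.00 to 1.03). UTP14 (YML093W, chromosome XIII, 83090 to 85789), for the protein that activates the helicase Dhr1, had 18106 and 14242 counts and the highest ratio of the group, 1.12 (1.10 to 1.15).

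Ratios were also set against coding length. The 4 longest, UTP20, UTP10, UTP22 and BMS1 (3552 bp or more), were all above the median gene, with a median log2 ratio of 0.02. Of the other 254 protein-coding genes of at least that length, 40.2% were above it, and their median was −0.05. The 10 shortest of the 40 genes had a median of −0.20, the 20 of middle length −0.34 and the 10 longest −0.01. Spearman's rho of coding length with log2 ratio was 0.27 over the 40 genes and −0.14 over all 5177 protein-coding genes with a known length, but 0.0082 over the 36 genes without the 4 longest. It therefore rests on those 4. For GC content, rho with log2 ratio was 0.14 over the 40 genes and 0.24 over all 5177. These are descriptions of genes from the same libraries, without a test.

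**Figure D4:**
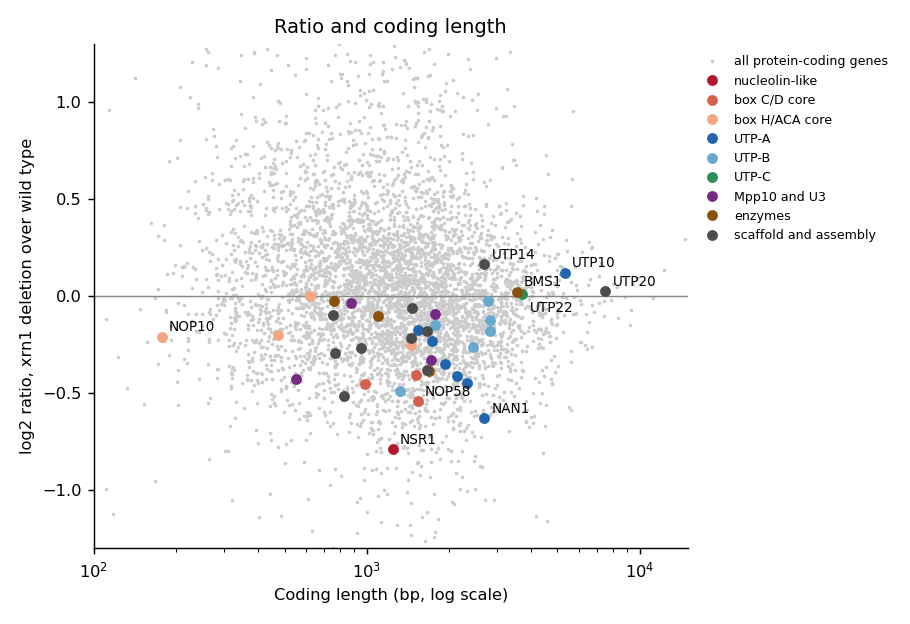
Log2 ratio of deletion strain over wild type against coding length in bp on a log axis, for the 40 genes (coloured by role) and for all protein-coding genes (grey), with the most extreme grey points outside the axis. The 4 longest coloured points lie just above 0, and NSR1 lies lowest at −0.79.

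The genes had no introns, overlapped no other annotated gene and lay on 13 chromosomes with no adjacent pair. NOC4 was the only gene within 1000 bp of an annotated snoRNA gene, at 309 bp. Overlap with reading frames that are absent from the annotation, most dubious ones among them, was not analysed here. In 13 cases the gene upstream was divergent, so that the region between both start codons is shared. These neighbours had a median log2 ratio of 0.12, and 5 of the 13 were below the median gene. They ran from NCB2, for a subunit of a cofactor of RNA polymerase II, at −0.71 beside UTP5 at −0.35, to SYF2, for a splicing factor, at 0.73 beside UTP8 at −0.41. Of the other neighbours below the median gene, RPS18A, ASN1 and YCG1 stood beside the clearly lower UTP6, NOC4 and UTP4. YPL216W, at −0.28, stood beside BMS1, which was at 0.02. Above the median gene, TSC13, HHO1 and MRPL6 were at 0.17, 0.16 and 0.15 beside the clearly lower NOP1, NAN1 and IMP3. Clearly lower genes thus had divergent neighbours on both sides of the median gene.

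Ratios were set beside the presence of the promoter elements. The 35 genes with both PAC and RRPE centred on −0.22. The 5 without the pair centred on −0.18 and lay between −0.51 for UTP30 and 0.01 for UTP22. The 27 genes with the longer PAC form had a median of −0.18 and the 13 without it one of −0.25. Over all protein-coding genes with at least 100 counts, the 441 with both elements had a median of −0.12 and the other 4736 one of 0.01. Leaving out the 40 genes and the other ribosome gene lists described next, the 301 genes with both elements had a median of −0.08, and 59.8% were below the median gene. The 4576 without the pair had a median of 0.02. Among these remaining genes the 879 with PAC were at −0.01 and the 1077 with RRPE at −0.05, those with the pair included. The lists may not hold every gene of ribosome biogenesis, and a link between the elements and the ratios was not tested.

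Other genes of the same pathway were read alongside. Of 39 further processome and pre-40S factors, 29 were below the median gene, and their median log2 ratio was −0.16. In that list 9 genes were clearly lower (23.1%) and 0 higher. The lowest was the DEAD-box helicase gene DBP8, with 9863 and 4072 counts, at −0.76, and the highest was NOP6, with 3683 and 3141 counts, at 0.28. Of 12 genes for other snoRNP proteins and snoRNP assembly factors, SNU13 included, 5 were below the median gene. In that list 3 were clearly lower and 1 clearly higher, and the median was 0.11. SRP40, for a chaperone of snoRNPs in the nucleolus, was highest at 0.48 with 25460 and 24891 counts. TGS1, for the enzyme that hypermethylates snoRNA caps, was lowest at −0.43. The difference between these lists was not tested.

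The genes of the large subunit and of the ribosome itself had like medians. The 65 assembly factors of the large subunit were at −0.23, with 17 genes clearly lower (26.2%) and 2 clearly higher, from RPF2 at −0.65 to CGR1 at 0.73. The 137 cytosolic ribosomal protein genes were at −0.20, with 39 genes clearly lower (28.5%) and 1 clearly higher, from RPS28A at −0.56 to RPL15B at 0.32. Many of the latter are near-identical pairs, so their single values are uncertain. The 7 genes of RNA polymerase I subunits were at −0.12, from RPA34 at −0.61 to RPA14 at 0.20. No difference between these lists and the 40 genes was tested.

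**Figure D5:**
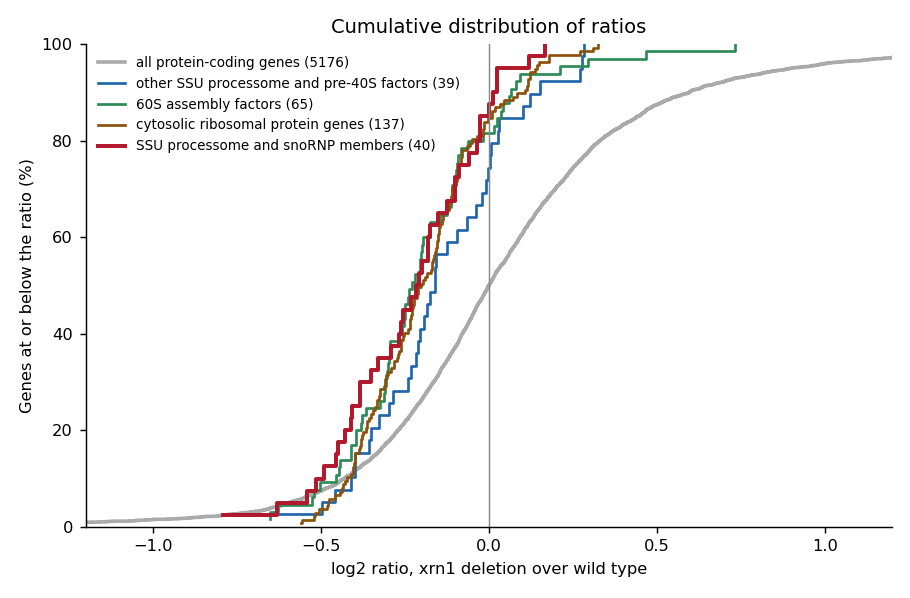
Cumulative share of genes (%) at or below each log2 ratio of deletion strain over wild type, for the 40 genes, 39 other processome and pre-40S factors, 65 large subunit assembly factors, 137 ribosomal protein genes and all protein-coding genes with a known length. The coloured curves run close together left of the grey curve of all genes, and at a ratio of 0 they have passed 74% to 88% of their genes while the grey one is at 50%.

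Genes for regulators that act on PAC, RRPE or ribosome biogenesis were read from the same libraries. DOT6, for a repressor that binds PAC, had 24379 wild type and 32524 mutant counts and was 1.90-fold higher (1.87 to 1.93). TOD6, for its paralog with the same binding sequence, received 9108 wild type and 4645 mutant counts, 1.38-fold lower (1.33 to 1.43). STB3, for a repressor that binds RRPE, had 5344 and 4462 counts and a log2 ratio of 0.25. The genes of the activator Sfp1 and of the kinase Sch9 were at −0.34 and −0.25. The part of these differences in the ratios of the 40 genes was not tested.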

How the data were processed

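The deposited file of the authors gives whole-number read counts for each open reading frame in the wild type and the mutant. Per the submitters' processing notes, FastQC, Trimmomatic, TopHat2 2.1.1, Subread and featureCounts were used with the builds R64 and sacCer3. Strand use and the treatment of reads with several matches are not given in the sources used here. Of the 6448 rows, 5831 matched a RefSeq R64 locus tag, from which symbols, coordinates and sequence were taken.

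Each ratio was scaled to the median protein-coding gene among those whose counts in the libraries summed to at least 100. Members, role groups, lists, motifs and thresholds were chosen with earlier results of these data known. All 40 members could be named. From other lists the highest and the lowest ratio were named, with the regulators and strain markers. SNU13, RTS3, MTR3, NCB2, SYF2, RPS18A, ASN1, YCG1, YPL216W, TSC13, HHO1 and MRPL6 were named after their values were seen. Alternatives were 4 other scalings (edgeR 4.0.16 TMM and DESeq2 1.42.0 size factors among them), other count minimums, an added count of 5, omission of overlapping genes and removal of lowess trends (fraction 0.3). Python 3.11.15, scipy 1.17.1, statsmodels 0.14.6 and R 4.3.3 were used. The procedure was tested on data simulated with counting error only, so that test does not cover the spread between cultures. The protocols name no molecular identifiers, so intervals cover counting error only.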

Additional observations from a re-analysis of the deposited data

How the results depend on the processing

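No paired analysis was possible because there was 1 library for each strain, none of which could be left out. Over the 10 alternatives the median log2 ratio of the 40 genes lay between −0.24 and −0.20. The −0.24 came from scaling to all counts, which put the median gene itself at −0.027. Such a scaling shifts all genes alike and leaves positions relative to the median gene as they were. A log2 ratio below 0 was found for 34 to 38 genes, 38 with that scaling, and 10 to 14 were clearly lower. Of the 14, 7 were so in every alternative, namely NSR1, NAN1, NOP58, NOP1, UTP30, IMP3 and NOC4. NOP56, UTP4, UTP5, UTP6, UTP8, ROK1 and RRP9 were so in 9 of 10. The exception was removal of the count and GC trends for NOP56, UTP4, UTP6, UTP8 and ROK1, and of the length trend for UTP5 and RRP9. Only these trend removals could reorder the genes appreciably, since the other alternatives shifted all 40 nearly alike. With trends on count and GC content taken out, 1 gene was clearly higher, UTP10 at 0.35, UTP22 was at 0.17 and ribosomal protein genes at −0.14. With the length trend removed, 1 gene (NSR1) was 1.5-fold lower, box H/ACA genes were at −0.26, UTP22 at 0.071 and ribosomal protein genes at −0.27. Scaled to all counts, NSR1 was at −0.82 and UTP22 at −0.014, and scaled to coding counts NSR1 was at −0.81. The median of the list of other snoRNP proteins and snoRNP assembly factors turned to −0.06 after removal of the GC and count trends. Without the 4 longest genes, left out after seeing the data, rho of length with ratio was 0.0082. The cause of these shifts was not tested.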
